A study of Mus musculus with 17 samples.

Results

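Kidneys in which beta-catenin was activated in nephron progenitors were compared with wild-type kidneys of their own library set, across every gene that was measurable. The 6 libraries were the 3 labelled Ctnnb1-delta3 c/+;Six2, called Six2-Cre here, and wild-type replicates 7 to 9, chosen by their labels from the 17 libraries of the series. The other 11 were 5 with the same allele and a Foxd1-Cre driver and wild-type replicates 1 to 6. All 6 libraries were made from total RNA of dissected whole kidneys at stage E12.5 from mice of mixed strain, kept in RNAlater and extracted with the RNeasy Micro kit. The Six2-Cre mice carried 1 copy of an allele of Ctnnb1, the beta-catenin gene, that Cre recombinase converts to an active form, and Six2-Cre made the recombinase in the nephron progenitor lineage. The labels do not say whether the wild types carried the Cre driver, so the driver and the activated allele cannot be told apart. They also do not say whether replicates were separate embryos or pools, so p-values measure the spread between these libraries, which may be technical. The deposited values were FPKM, which scale fragments to transcript length and library size. Of 24432 gene IDs, 13085 had at least 1 FPKM in at least 3 of the 6 libraries and were tested on the log2(FPKM + 1) scale with limma.

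As background, beta-catenin carries the Wnt signal to the nucleus, where it binds factors of the TCF/LEF family and switches on genes that include several brakes on the pathway. Without a Wnt signal, kinases phosphorylate serines and a threonine near its start, and the protein is destroyed. Deleting exon 3 removes these residues, so that the protein escapes destruction. In the embryonic kidney, progenitors that express the transcription factor Six2 cap the tips of the ureteric bud. They renew at low beta-catenin activity and turn into nephron epithelium after Wnt9b from the bud switches on Wnt4.

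Exon 3 of Ctnnb1 is shown because it is the stretch that the allele loses and that a value for the whole gene cannot report. It lies at chr9:120950522-120950749 on the plus strand of GRCm38 in the GENCODE annotation, is 228 bases long and spans a whole number of codons (76). Capitals mark codons 33 (TCT), 37 (TCT), 41 (ACC) and 45 (TCC), which code for the residues that the kinases phosphorylate.
Ctnnb1 exon 3: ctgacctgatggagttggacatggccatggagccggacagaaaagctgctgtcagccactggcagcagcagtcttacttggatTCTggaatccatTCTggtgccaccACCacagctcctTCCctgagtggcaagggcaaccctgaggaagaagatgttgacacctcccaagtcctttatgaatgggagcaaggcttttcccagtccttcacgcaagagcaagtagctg

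Promoters were on hand for 8 of the 12 genes that rose most. They were searched from 250 bases before to 50 bases after the start. Among these genes, Sp5 and Dkk1 held the core letters that TCF/LEF factors bind, CTTTGAT or CTTTGAA on either strand. Their promoters are shown for that reason, from RefSeq on GRCm38.p6, each 5′ to 3′ along the gene with the match in capitals. That of Sp5 lies at chr2:70474673-70474972 on the plus strand and that of Dkk1 at chr19:30549447-30549746 on the minus strand. The match began 104 bases before the RefSeq start of Sp5 (position -104) and 117 bases before that of Dkk1 (position -117). In the GENCODE annotation Dkk1 reaches 30549665, upstream of its RefSeq start, so by that annotation the match lies inside the gene.
Sp5 promoter: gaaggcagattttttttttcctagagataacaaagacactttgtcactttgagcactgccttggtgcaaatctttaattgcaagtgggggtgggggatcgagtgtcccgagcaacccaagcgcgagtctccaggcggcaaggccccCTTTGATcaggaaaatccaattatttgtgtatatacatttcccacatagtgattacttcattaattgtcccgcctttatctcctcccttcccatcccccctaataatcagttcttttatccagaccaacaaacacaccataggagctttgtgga
Dkk1 promoter: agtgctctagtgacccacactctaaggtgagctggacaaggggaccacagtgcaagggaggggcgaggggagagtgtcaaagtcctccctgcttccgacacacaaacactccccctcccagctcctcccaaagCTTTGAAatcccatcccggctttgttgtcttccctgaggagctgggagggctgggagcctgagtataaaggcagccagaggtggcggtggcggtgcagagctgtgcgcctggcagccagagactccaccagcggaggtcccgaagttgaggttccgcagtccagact

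The 6 libraries separated by genotype on the main axis of variation. They had total FPKM from 799273 to 834838 and 7590 to 7891 genes listed at 0, and the smallest step between low values corresponded to 5250000 to 5800000 reads each, so that 1 read on a transcript of 1 kilobase was worth 0.172 to 0.190 FPKM. On the first principal component, which took 35.3% of the variance, lay the Six2-Cre libraries at 20.1 to 26.8 and the wild types from -29.3 to -19.1. Pearson's r over the genes tested was 0.963 to 0.969 within groups and 0.949 to 0.959 between them, as a description across genes. Xist was high in Six2-Cre replicate 1 and wild-type replicate 7, and the Y-linked genes Ddx3y, Eif2s3y, Kdm5d and Uty were high in the other 2 libraries of each group, so the groups were balanced for sex. Defining kidney genes were present in both groups, among them Wt1 (44.6, 41.2 and 39.9 FPKM in the Six2-Cre libraries and 78.0, 83.1 and 75.3 in the wild types) and Ret (8.20, 8.25 and 8.73 FPKM in the Six2-Cre libraries and 11.6, 12.6 and 10.0 in the wild types).

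In all, 1127 genes rose and 845 fell at a Benjamini-Hochberg adjusted p under 0.05, which is 8.61% and 6.46% of the genes tested (15.1% together). The median log2 change of all genes was -0.01, and the median size of a called change was 0.507 on the log2 scale. Changes of at least 1 on the log2 scale were called for 187 rises (1.43%) and 87 falls (0.665%), and 122 genes had at least 1 FPKM in all 3 Six2-Cre libraries and under 1 FPKM in all 3 wild types, while 56 met the reverse condition. The libraries of the groups did not overlap for 2415 higher (18.5%) and 2378 lower (18.2%) genes. Against all 9 wild types, which mixes library sets that were scaled separately, 1639 genes rose and 2174 fell. With 1 library left out, rises numbered 720, 689 and 623 without Six2-Cre replicate 1, 2 and 3 and 792, 705 and 961 without wild-type replicate 7, 8 and 9, and falls numbered 474, 463, 382, 437, 426 and 639 in the same order. Of the changes of at least 1, 157 of the 187 rises and 79 of the 87 falls were called in each of those 6 fits. In what follows a value such as 1.41 ± 0.09 in brackets is the log2 change and its SE, a range after it is its 95% interval, and rose or fell marks an adjusted p under 0.05. A count beside a list that is followed by the word without is the count in the fit that leaves that library out, and list counts of 2 or fewer often moved with 1 library.

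**Figure D1:**
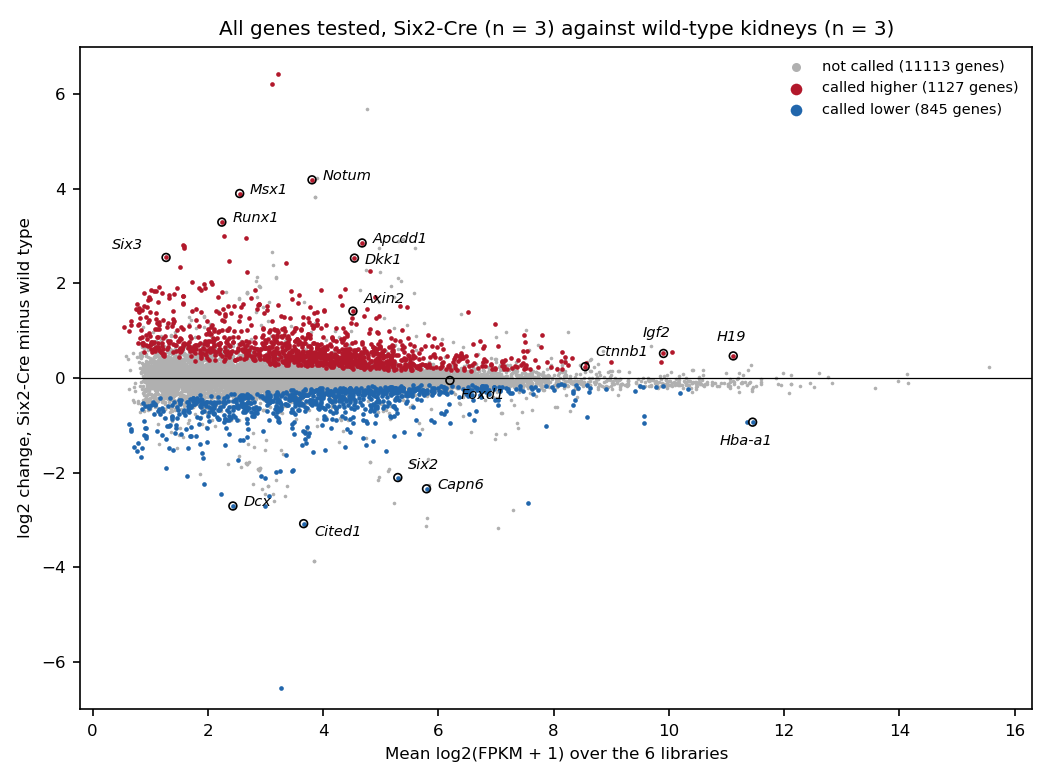
Each point is 1 of the 13085 genes tested, plotted by its mean log2(FPKM + 1) over the 6 libraries (horizontal axis) and its log2 change in Six2-Cre minus wild-type kidneys (vertical axis). Red marks the 1127 genes called higher, blue the 845 called lower, and circles the genes named. Notum and Msx1 stand at the top among the circled genes and Cited1 at the bottom.

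Ctnnb1 and the genes of the drivers came first. Ctnnb1 (ENSMUSG00000006932, chromosome 9, 120929216 to 120960507) was at 399.7, 414 and 404 FPKM in the Six2-Cre libraries and 327, 360.4 and 342 in the wild types. The groups did not overlap, and its log2 change was 0.24 ± 0.05 (SE, adjusted p = 0.0195). That call ended without any 1 of Six2-Cre replicate 1 (0.0547), Six2-Cre replicate 2 (0.0710), Six2-Cre replicate 3 (0.0713) and wild-type replicate 9 (0.0501), while with all 9 wild types as controls, a mix of separately scaled sets, the change was -0.0447. The value covers the whole gene and did not check the genotype. Six2 (ENSMUSG00000024134, chromosome 17, 85684277 to 85688274), the factor that keeps progenitors undifferentiated, was at 18.2, 17.7 and 17.9 FPKM in the Six2-Cre libraries and 87.5, 84.3 and 70.6 in the wild types. It was 4.50-fold lower, without overlap, a log2 change of -2.10 ± 0.08 (adjusted p = 8.4e-05). In the rest of the series Six2 lay between 83.2 and 95.4 FPKM in the 5 Foxd1-Cre libraries and between 93.0 and 125 FPKM in wild-type replicates 1 to 6, so the 3 Six2-Cre libraries were the lowest of all 17. In whole kidneys, fewer cells of a type and less RNA per cell cannot be told apart. Foxd1, the stromal factor, was at 75.9, 69.8 and 68.3 FPKM in the Six2-Cre libraries and 66.4, 79.2 and 76.6 in the wild types. The groups overlapped, and the change of -0.05 ± 0.08 did not pass (95% interval -0.24 to 0.13, adjusted p = 0.704).

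Notum, a brake on the Wnt pathway, had the largest log2 change of the genes named by the rule for large changes, and 4 of the 12 largest rises were inhibitors of the pathway. Of 20 measured members of a list of Wnt targets and feedback genes, 10 rose (8.61% of all genes did), 3 fell and 7 did not pass, with a median log2 change of 0.49 against -0.01 over all genes. Notum (ENSMUSG00000042988, chromosome 11, 120653788 to 120661175), an extracellular enzyme that removes the lipid Wnt ligands need, was measured at 53.7, 65.7 and 57.7 FPKM in the Six2-Cre libraries and 2.97, 1.59 and 2.42 in the wild types. Each Six2-Cre library held more than 10 times the level of each wild type, a 25.4-fold rise in the mean (4.19 ± 0.16 on the log2 scale, adjusted p = 8.4e-05). Axin2 (ENSMUSG00000000142, chromosome 11, 108920349 to 108950783), the scaffold of the complex that destroys beta-catenin, was at 34.2, 41.2 and 34.1 FPKM in the Six2-Cre libraries and 13.2, 12.4 and 13.5 in the wild types. It was 2.80-fold higher without overlap (1.41 ± 0.09, adjusted p = 4.2e-04).

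Further secreted and surface inhibitors rose with them. Dkk1 (ENSMUSG00000024868, chromosome 19, 30545863 to 30549665), which blocks the Wnt co-receptor, was at 52.4, 58.9 and 54.5 FPKM in the Six2-Cre libraries and 9.12, 8.87 and 8.11 in the wild types. Apcdd1, a membrane inhibitor, was at 61.4, 74.6 and 68.1 FPKM in the Six2-Cre libraries and 8.81, 7.90 and 8.84 in the wild types. Wif1 (ENSMUSG00000020218, chromosome 10, 121033960 to 121100650), which binds Wnt proteins outside the cell, was at 8.46, 12.2 and 13.2 FPKM in the Six2-Cre libraries and 1.35, 0.812 and 1.41 in the wild types. None of the 3 genes overlapped between the groups, and their log2 changes were 2.54 ± 0.07, 2.86 ± 0.08 and 2.48 ± 0.19 (adjusted p = 4.3e-05, 4.3e-05 and 9.5e-04). Nkd1, an inhibitor inside the cell, rose by 1.88 ± 0.07, and Sp5 (ENSMUSG00000075304, chromosome 2, 70474923 to 70477729), a transcription factor switched on directly by the pathway, by 2.97 ± 0.13 (adjusted p = 1.0e-04), from 1.57, 1.198 and 1.02 FPKM to 16.04, 18.9 and 15.1 FPKM. Lef1, a nuclear partner of beta-catenin, was at 36.3, 44.6 and 40.1 FPKM in the Six2-Cre libraries and 15.6, 16.7 and 14.8 in the wild types and rose by 1.30 ± 0.09 without overlap. Tnfrsf19 (1.18 ± 0.14) rose too.

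The list did not move as a block. Myc, a growth regulator, was at 25.2, 27.3 and 26.1 FPKM in the Six2-Cre libraries and 48.6, 47.5 and 43.1 in the wild types and fell by 0.80 ± 0.06. Ccnd1, which drives entry into the cell cycle, was at 77.8, 77.2 and 79.5 FPKM in the Six2-Cre libraries and 135, 121 and 123 in the wild types and fell by 0.69 ± 0.05. Rnf43, which removes Wnt receptors from the surface, fell by 0.59 ± 0.10 from 4.59, 4.51 and 3.79 FPKM to 2.62, 2.35 and 2.54 FPKM. For all 3 genes every Six2-Cre library lay below every wild type. Its partner Znrf3 (-0.12 ± 0.08, 95% interval -0.32 to 0.08), the stem cell marker Lgr5 (-0.14 ± 0.16, -0.52 to 0.25) and the nuclear partner Tcf7 (0.05 ± 0.29, -0.64 to 0.75) did not pass. Tcf7 varied widely within both groups, at 225, 163 and 123 FPKM in the Six2-Cre libraries and 193, 192 and 109 in the wild types. Tnfrsf19, Myc, Rnf43 and the members that did not pass were named after their values were seen.

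**Figure D2:**
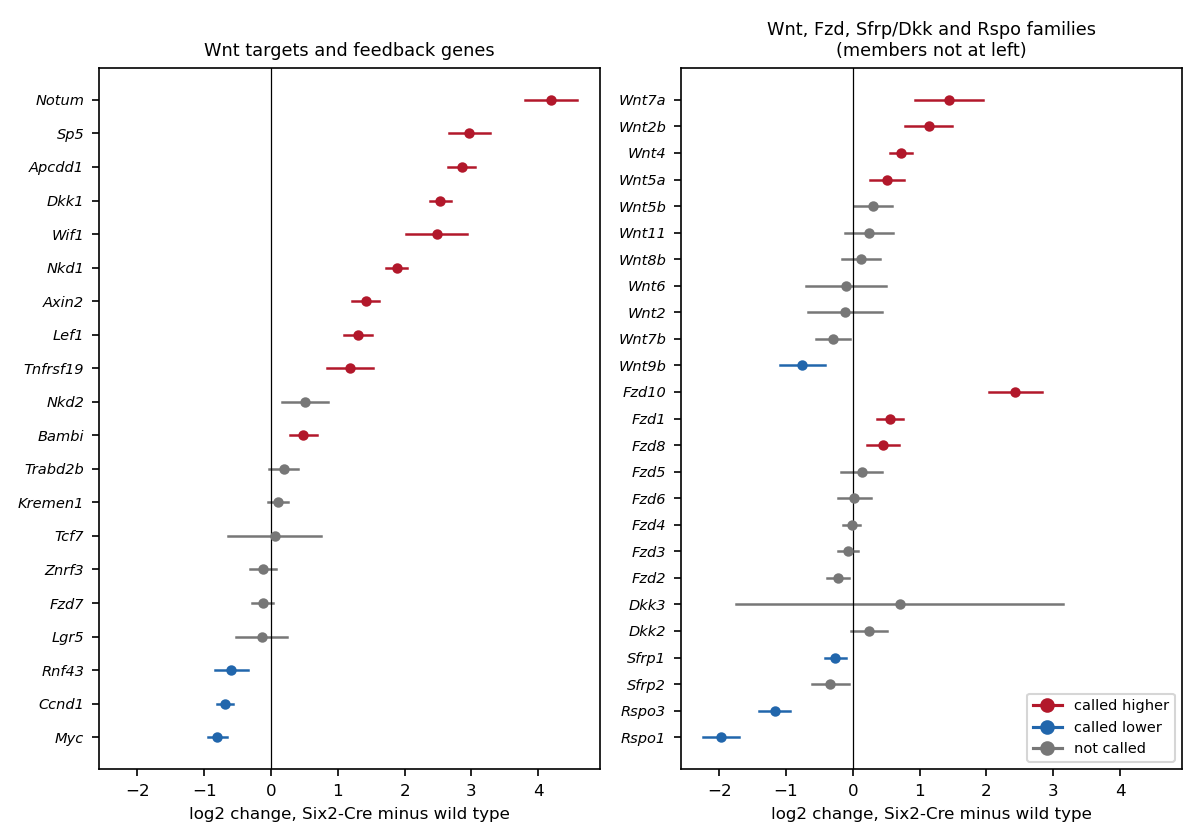
Points give the log2 change in Six2-Cre minus wild-type kidneys and lines its 95% interval, for measured Wnt targets and feedback genes (left) and for the other measured Wnt, Fzd, Sfrp, Dkk and Rspo genes (right). Notum has the largest rise at 4.19 and Rspo1 the largest fall at -1.97.

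Among the Wnt ligands 4 of 11 measured genes rose and 1 fell (36.4% and 9.09%, against 8.61% and 6.46% of all genes). Wnt4, the signal that starts epithelium formation, was at 32.9, 32.004 and 30.4 FPKM in the Six2-Cre libraries and 20.5, 18.2 and 17.9 in the wild types and rose by 0.72 ± 0.07 (adjusted p = 0.00149) without overlap. Wnt2b (1.13 ± 0.15), a stromal ligand, and Wnt7a (1.44 ± 0.21) rose as well, Wnt7a from 0.0508, 0.0525 and 0.0548 FPKM to 1.07, 2.31 and 2.41 FPKM. Wnt9b, the ureteric bud signal, was at 2.93, 2.10 and 2.04 FPKM in the Six2-Cre libraries and 4.24, 5.35 and 4.33 in the wild types, a change of -0.75 ± 0.14 whose call ended without Six2-Cre replicate 2 (0.0599), Six2-Cre replicate 3 (0.0626) and wild-type replicate 8 (0.0562).

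The receptors split in the same uneven way. Fzd10 was at 21.9, 24.6 and 21.5 FPKM in the Six2-Cre libraries and 3.48, 2.47 and 4.45 in the wild types, a 6.55-fold rise without overlap (2.43 ± 0.17, adjusted p = 6.1e-04). Of 9 measured Frizzled receptors 3 rose (33.3%, against 8.61% of all genes), 0 fell and 6 did not pass. The rise of Fzd1 was 0.56 ± 0.08. Of 4 R-spondins, which amplify Wnt signals, the 2 that were measured fell, and Rspo2 and Rspo4 were under the filter. Rspo1 was at 4.99, 4.50 and 4.28 FPKM in the Six2-Cre libraries and 21.7, 23.4 and 17.9 in the wild types, and Rspo3 at 8.01, 6.55 and 8.28 FPKM in the Six2-Cre libraries and 18.3, 19.2 and 17.3 in the wild types. Every Six2-Cre library lay below every wild type for both, with changes of -1.97 ± 0.11 and -1.17 ± 0.10 (adjusted p = 3.3e-04 and 0.00113).

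Several transcription factors that were nearly silent in the wild types were measurable in all Six2-Cre kidneys. Msx1 (ENSMUSG00000048450, chromosome 5, 37820485 to 37824583), a homeobox factor of mesenchyme that also responds to BMP signals, was at 22.1, 24.2 and 19.01 FPKM in the Six2-Cre libraries and 0.414, 0.695 and 0.457 in the wild types, a 41.7-fold rise (3.90 ± 0.12, adjusted p = 5.0e-05). Elsewhere in the series, where libraries were scaled separately, Msx1 lay between 0.935 and 1.34 FPKM in wild-type replicates 1 to 6 and between 5.80 and 6.89 FPKM in the 5 Foxd1-Cre libraries. Runx1 (ENSMUSG00000022952, chromosome 16, 92601466 to 92826149), a regulator of blood formation, was at 13.3, 15.1 and 13.2 FPKM in the Six2-Cre libraries and 0.503, 0.450 and 0.578 in the wild types, a 27.2-fold rise (3.30 ± 0.09, adjusted p = 4.3e-05). Runx1 did not exceed 0.431 FPKM in any of the 5 Foxd1-Cre libraries or 0.270 FPKM in wild-type replicates 1 to 6. Irx5 (ENSMUSG00000031737, chromosome 8, 92357625 to 92376286), an Iroquois homeobox factor, was at 5.56, 7.94 and 7.17 FPKM in the Six2-Cre libraries and 0.216, 0.302 and 0 in the wild types (2.75 ± 0.16). Msx2 followed at 5.81, 6.71 and 7.30 FPKM in the Six2-Cre libraries and 1.62, 0.983 and 0.370 in the wild types (1.98 ± 0.24).

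Of 12 measured paired-like, Msx and Dlx homeobox genes 8 rose and 2 fell (66.7% and 16.7%, against 8.61% and 6.46% of all genes). Their median log2 change was 1.27, and 7 of the rises were called with any 1 library left out. Prrx1, a factor of limb and skull mesenchyme, was at 45.3, 45.2 and 47.8 FPKM in the Six2-Cre libraries and 15.4, 16.8 and 24.7 in the wild types and rose by 1.27 ± 0.16. Dlx5 was at 1.44, 3.96 and 2.37 FPKM in the Six2-Cre libraries and 0.139, 0 and 0.1396 in the wild types (1.66 ± 0.26), and Alx4 (1.09 ± 0.14) and Prrx2 (1.28 ± 0.17) rose too. The progenitor gene Uncx fell by 1.43 ± 0.08. Runx2, a regulator of bone, rose by 1.52 ± 0.32, and its call ended without Six2-Cre replicate 1 (0.0775), Six2-Cre replicate 3 (0.0763) and wild-type replicate 7 (0.0577). Gata6 (1.13 ± 0.09) and Gata5 (1.37 ± 0.14) rose, as did Sp9 (1.202 ± 0.13) and Sox5 (1.00 ± 0.09), and each was called with any 1 library left out. Dlx5, Alx4 and Prrx2 were named after their values were seen.

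Six3 (ENSMUSG00000038805, chromosome 17, 85613608 to 85629302), a relative of Six2 known from forebrain and eye, was listed at 0 in all 3 wild types and at 4.55, 5.05 and 4.99 FPKM in the Six2-Cre libraries. It stayed at or below 0.0813 FPKM in the 5 Foxd1-Cre libraries and at or below 0.0519 FPKM in wild-type replicates 1 to 6. The gene lies 54974 bases from Six2 on the same chromosome, and it rose while Six2 fell. The labels do not say how the Cre driver sits in the genome, so for both genes the driver and the activated allele cannot be told apart. Its fitted change (2.55 ± 0.10, adjusted p = 8.6e-05) depends on the pseudocount of 1 and is no estimate of a fold.

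A handful of genes went from listed at 0 to measurable or the reverse. Where a gene had to average 1 FPKM or more in the opposite group, 4 genes were listed at 0 in the wild types. These were Six3, Rfx4 (2.28, 2.80 and 2.35 FPKM in the Six2-Cre libraries), a regulator of neural tube patterning, the protease gene Prss56 (1.52, 2.24 and 2.12 FPKM) and Evx1 (1.28, 1.06 and 1.01 FPKM), a homeobox factor of the posterior embryo. In the other direction, 3 genes were listed at 0 in the Six2-Cre libraries, namely Pcp2 (1.89, 2.63 and 2.07 FPKM in the wild types), Pnmt (1.55, 2.54 and 1.69 FPKM), the enzyme that makes adrenaline, and the calcium-binding gene Ocm (1.58, 2.92 and 1.01 FPKM). All of these values are low, and a listed 0 can be a failed estimate.

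A group of signalling and patterning genes that are usual in the early brain, ear or primitive streak appeared at low levels. En2, a factor of the border between midbrain and hindbrain, was at 5.58, 6.66 and 4.95 FPKM in the Six2-Cre libraries and 0.736, 0.657 and 0.532 in the wild types (2.03 ± 0.13). Fgf17 was at 2.79, 3.68 and 2.78 FPKM in the Six2-Cre libraries and 0, 0.207 and 0.221 in the wild types (1.84 ± 0.15), and Fgf3 at 1.84, 1.96 and 2.75 FPKM in the Six2-Cre libraries and 0.299, 0 and 0 in the wild types (1.53 ± 0.18). Both are secreted FGF ligands, and their groups did not overlap. Gbx2 (1.52, 1.85 and 2.52 FPKM in the Six2-Cre libraries and 0.473, 0.238 and 0.168 in the wild types) and Mixl1 (1.75, 1.78 and 2.45 FPKM in the Six2-Cre libraries and 0.161, 0.163 and 0 in the wild types), a homeobox factor of the primitive streak, rose by 1.19 ± 0.17 and 1.43 ± 0.15. T, another gene of the primitive streak, stayed under the filter, with 0.338 to 0.663 FPKM in the Six2-Cre libraries and 0 to 0.181 FPKM in the wild types, and it reached 0.532 FPKM in wild-type replicates 1 to 6. The genes of this paragraph were named after their values were seen, and together they are no list.

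The other leading rises were of mixed function. Tmem132c (ENSMUSG00000034324, chromosome 5, 127241808 to 127565793), which codes for a membrane protein, was at 11.1, 14.3 and 12.9 FPKM in the Six2-Cre libraries and 0.351, 0.748 and 1.12 in the wild types (3.00 ± 0.18). Mab21l1 (ENSMUSG00000056947, chromosome 3, 55782510 to 55785001), needed for eye development, was at 5.40, 8.29 and 7.199 FPKM in the Six2-Cre libraries and 0.143, 0.142 and 0.0730 in the wild types (2.81 ± 0.16). Mt3 (ENSMUSG00000031760, chromosome 8, 94152607 to 94154146), a metal-binding protein, was at 7.12, 4.91 and 9.47 FPKM in the Six2-Cre libraries and 0, 0.511 and 0 in the wild types (2.79 ± 0.26). For each of them the groups were far apart, and all 3 changes were called with any 1 library left out (adjusted p = 4.2e-04, 3.3e-04 and 0.00147 with all 6). Mab21l1 lies within Nbea in the annotation.

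**Figure D3:**
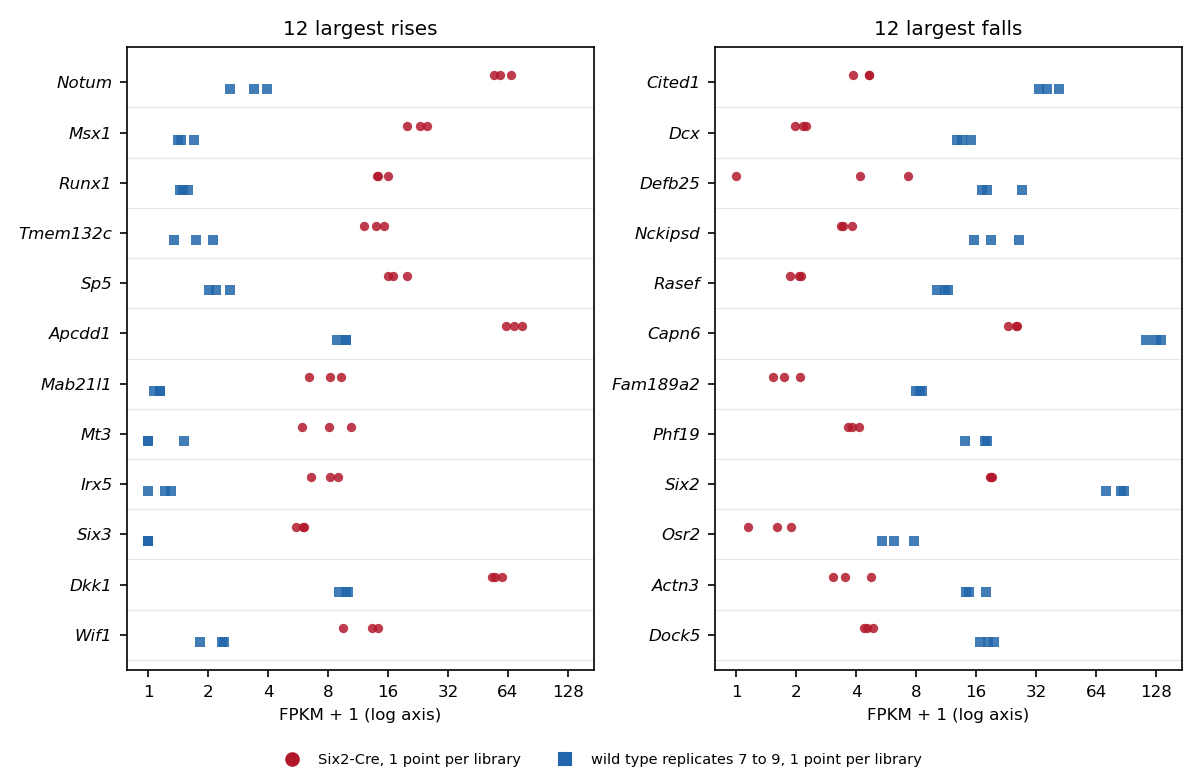
FPKM + 1 on a log axis in each library for the 12 genes that rose most (left) and the 12 that fell most (right), with Six2-Cre libraries as red circles and wild-type replicates 7 to 9 as blue squares. No gene shown overlaps between the groups, and Six3 sits at 0 FPKM in all 3 wild types.

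Most nephron progenitor genes fell. Of 23 measured members 15 fell, 0 rose and 8 did not pass, 4 of which had positive changes, against falls for 6.46% of all genes, and the median log2 change was -0.87. With 1 library left out, 14 to 16 members fell, and 1 rose without Six2-Cre replicate 1 or wild-type replicate 9. Their mean level was 3.73, 3.73 and 3.71 in the Six2-Cre libraries and 4.52, 4.55 and 4.50 in the wild types on the log2(FPKM + 1) scale. Cited1 (ENSMUSG00000051159, chromosome X, 102247381 to 102252181), a marker of the least committed progenitors, was at 3.64, 3.64 and 2.84 FPKM in the Six2-Cre libraries and 40.5, 35.4 and 31.98 in the wild types, 10.7-fold lower without overlap (-3.08 ± 0.12, adjusted p = 8.1e-05). Eya1, the partner of Six2, was at 19.2, 18.2 and 19.5 FPKM in the Six2-Cre libraries and 55.1, 61.9 and 54.2 in the wild types (-1.54 ± 0.07). Its relative Eya2, picked once its value was known, was at 1.68, 1.91 and 2.503 FPKM in the Six2-Cre libraries and 7.09, 6.94 and 7.12 in the wild types (-1.42 ± 0.12).

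The falls differed in size along the list. Uncx (-1.43 ± 0.08), Crym (-1.33 ± 0.08), Meox2 (-1.22 ± 0.08) and Spock2 (-1.13 ± 0.11) fell by over 1 on the log2 scale. Wt1 (-0.90 ± 0.06), Pax2 (-0.88 ± 0.06) and Osr1 (-0.87 ± 0.12), factors that are also needed before progenitors commit, fell by less. Pax2 was at 35.0, 36.3 and 34.4 FPKM in the Six2-Cre libraries and 69.6, 66.1 and 61.2 in the wild types, without overlap. The integrin gene Itga8 fell by 0.50 ± 0.06, from 29.1, 30.2 and 26.6 FPKM to 20.05, 20.2 and 19.7 FPKM, though with all 9 wild types as controls its change was 0.0361. Gdnf, the signal that progenitors send to the bud, was at 22.5, 22.4 and 22.2 FPKM in the Six2-Cre libraries and 27.6, 23.3 and 22.4 in the wild types, and its change of -0.12 ± 0.08 did not pass (95% interval -0.31 to 0.08). Sall1 (-0.20 ± 0.08, -0.39 to -0.01) and Fgf9 (-0.06 ± 0.19, -0.51 to 0.40) did not pass either. Crym, Meox2, Spock2, Pax2, Osr1, Sall1, Fgf9 and Gdnf were picked once their values were known.

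The remaining large falls were not on the progenitor list. Dcx (ENSMUSG00000031285, chromosome X, 143855842 to 143933311), a microtubule-binding protein of migrating neurons, was at 0.973, 1.23 and 1.15 FPKM in the Six2-Cre libraries and 14.1, 12.6 and 11.8 in the wild types (-2.71 ± 0.10, adjusted p = 8.1e-05). Its neighbour Capn6 (ENSMUSG00000067276, chromosome X, 143802231 to 143827414), a calpain without protease activity that also binds microtubules, was at 24.5, 24.4 and 22.1 FPKM in the Six2-Cre libraries and 134, 126 and 112 in the wild types (-2.34 ± 0.08, adjusted p = 5.9e-05). Neither gene overlapped between groups, and Capn6 had the higher FPKM, a level per transcript length, in every library. Rasef (ENSMUSG00000043003, chromosome 4, 73714579 to 73790994), a Rab-like GTPase, was at 0.853, 1.101 and 1.06 FPKM in the Six2-Cre libraries and 10.2, 10.6 and 9.20 in the wild types (-2.45 ± 0.10). Phf19 (ENSMUSG00000026873, chromosome 2, 34893757 to 34914026), a cofactor of the Polycomb complex, was at 2.63, 3.10 and 2.79 FPKM in the Six2-Cre libraries and 16.7, 17.2 and 13.1 in the wild types (-2.11 ± 0.12). Dock5 (ENSMUSG00000044447, chromosome 14, 67752135 to 67933442), an activator of Rac, was at 3.55, 3.39 and 3.83 FPKM in the Six2-Cre libraries and 17.3, 18.6 and 15.8 in the wild types (-1.99 ± 0.09).

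Nckipsd (ENSMUSG00000032598, chromosome 9, 108808368 to 108818844), an adaptor for actin assembly, was at 2.82, 2.35 and 2.45 FPKM in the Six2-Cre libraries and 18.1, 25.4 and 14.5 in the wild types (-2.49 ± 0.19). Actn3 (-2.07 ± 0.18), an actin crosslinker, and Fam189a2 (-2.23 ± 0.14) fell without overlap. Osr2 (ENSMUSG00000022330, chromosome 15, 35296098 to 35303305), a zinc finger factor, was at 0.137, 0.885 and 0.599 FPKM in the Six2-Cre libraries and 6.77, 4.36 and 5.18 in the wild types (-2.08 ± 0.23), low in every Six2-Cre library. Defb25 was at 0, 6.25 and 3.19 FPKM in the Six2-Cre libraries and 16.1, 26.2 and 17.0 in the wild types, and its call (adjusted p = 0.0455) ended without any 1 of Six2-Cre replicate 3 (0.0948), wild-type replicate 7 (0.101), wild-type replicate 8 (0.128) and wild-type replicate 9 (0.0890).

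Genes of committed nephrons went both ways. Of 17 measured members 6 rose (3 without Six2-Cre replicate 3) and 5 fell, and 3 and 4 of these were called with any 1 library left out. The shares called were 35.3% higher and 29.4% lower, against 8.61% and 6.46% of all genes. Besides Wnt4 and Lef1, Pou3f3 (0.52 ± 0.08), a factor of tubule segments, rose. Pax8 (-0.64 ± 0.09), Osr2 and Npnt (-0.995 ± 0.06), the matrix ligand of the Itga8 integrin, fell. Jag1, a Notch ligand, was at 24.2, 25.1 and 25.3 FPKM in the Six2-Cre libraries and 19.3, 16.5 and 19.4 in the wild types (0.42 ± 0.07), and its call ended without Six2-Cre replicate 2 (0.0516) and Six2-Cre replicate 3 (0.0563). The vesicle genes Lhx1 (-0.37 ± 0.17, -0.77 to 0.04) and Fgf8 (0.47 ± 0.15, 0.12 to 0.82) did not pass. The defining podocyte gene Nphs1 was under the filter, and of 8 measured podocyte list members Cldn5 and Podxl alone rose, both of which blood vessels also express. The rise of Podxl (0.43 ± 0.07) ended without Six2-Cre replicate 3 (0.0539). Pou3f3, Pax8, Lhx1 and Fgf8 were picked once their values were known.

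Epithelial genes of the ureteric bud, which Six2-Cre does not mark, were lower. Of 25 measured bud genes 13 fell, 1 rose and 11 did not pass, with a median of -0.40 (6.46% of all genes fell). The count of falls was 7 without Six2-Cre replicate 1 or 3 or without wild-type replicate 7 and 8 without wild-type replicate 8. Krt18 was at 17.7, 16.2 and 14.8 FPKM in the Six2-Cre libraries and 29.6, 30.6 and 27.6 in the wild types (-0.81 ± 0.08) and Krt8 at 14.4, 13.7 and 12.8 FPKM in the Six2-Cre libraries and 23.4, 22.3 and 23.2 in the wild types (-0.71 ± 0.06), keratins of simple epithelium. For both, every Six2-Cre library lay below every wild type. Epcam (-0.60 ± 0.07), an adhesion protein, Cdh16 (-0.64 ± 0.08), the kidney cadherin, and Gfra1 (-0.59 ± 0.06), a receptor for GDNF, fell. The receptor Ret was at 8.20, 8.25 and 8.73 FPKM in the Six2-Cre libraries and 11.6, 12.6 and 10.0 in the wild types, and its fall of 0.40 ± 0.09 (adjusted p = 0.0335) lost its call without Six2-Cre replicate 1 (0.0975), Six2-Cre replicate 2 (0.0987), Six2-Cre replicate 3 (0.0826), wild-type replicate 7 (0.0954) and wild-type replicate 8 (0.0923). Gata3 (-0.27 ± 0.07) and Cdh1 (-0.72 ± 0.13) fell with all 6 libraries, but the call of Gata3 ended without Six2-Cre replicate 1 (0.121), Six2-Cre replicate 3 (0.131), wild-type replicate 7 (0.116), wild-type replicate 8 (0.116) and wild-type replicate 9 (0.0646), and that of Cdh1 ended without Six2-Cre replicate 1 (0.0562), Six2-Cre replicate 3 (0.0599) and wild-type replicate 7 (0.0544). Spry1 (0.45 ± 0.06), a brake on Ret and FGF signals, rose. Ret was named after its value was seen.

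Genes of tight and adherens junctions fell in the same direction. Of 21 measured junction genes 12 fell and 1 rose (57.1% and 4.76%, against 6.46% and 8.61% of all genes), with a median of -0.52. The count of falls was 5 without wild-type replicate 7 and 6 without Six2-Cre replicate 3 and 7 without Six2-Cre replicate 1. Cldn4 was at 8.43, 7.34 and 6.91 FPKM in the Six2-Cre libraries and 18.2, 17.9 and 16.4 in the wild types (-1.11 ± 0.09), and Pard6b, a polarity protein, fell by 0.73 ± 0.10. Of 10 measured claudins 6 fell (3 without Six2-Cre replicate 3), and Cldn9 was at 2.69, 2.40 and 3.17 FPKM in the Six2-Cre libraries and 8.07, 8.38 and 8.51 in the wild types (-1.32 ± 0.10). The vascular claudin Cldn5 went the other way (1.05 ± 0.08). Progenitor genes fell and vessel genes rose in the same libraries, and their part in these falls was not tested.

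Mesenchymal genes rose in number, though not all stromal lists did. Of 16 measured mesenchymal factors 10 rose and 0 fell (62.5% and 0%, against 8.61% and 6.46% of all genes). The median was 0.63, and 8 to 11 rose with 1 library left out. Twist1 was at 45.1, 50.4 and 52.2 FPKM in the Six2-Cre libraries and 22.7, 24.0 and 25.7 in the wild types (1.00 ± 0.07). Zeb2 was at 51.9, 61.3 and 63.7 FPKM in the Six2-Cre libraries and 32.2, 28.5 and 36.1 in the wild types (0.85 ± 0.11). These repressors of epithelial genes did not overlap between groups, and Snai1 (0.82 ± 0.09), Snai2 (0.92 ± 0.05) and the matrix enzyme Loxl2 (0.79 ± 0.05) rose with them, while Zeb1 (0.06 ± 0.06, -0.08 to 0.20) and Cdh2 (-0.04 ± 0.05, -0.17 to 0.08) did not pass. Medullary stroma genes rose for 8 and fell for 2 of 14 (median 0.60), among them Fhl2 (1.26 ± 0.06) and Col15a1 (0.69 ± 0.08). Zeb1 and Cdh2 were named after their values were seen.

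Cortical stroma, where Foxd1 is made, showed less. Of 21 members 6 rose and 3 fell (28.6% and 14.3%, against 8.61% and 6.46% of all genes, median 0.17). The rises numbered 2 without wild-type replicate 7 and 3 without Six2-Cre replicate 1 or 3 or without wild-type replicate 8. With any 1 library left out, 2 of the rises and 2 of the falls were called. Ntn1, a guidance cue and stromal marker, was at 10.8, 7.61 and 7.70 FPKM in the Six2-Cre libraries and 29.3, 24.8 and 25.8 in the wild types and fell by 1.52 ± 0.14. Smoc2, a matrix protein, was at 7.72, 5.83 and 6.32 FPKM in the Six2-Cre libraries and 23.9, 16.5 and 18.0 in the wild types and fell by 1.42 ± 0.16. Both were low in all 3 Six2-Cre libraries. Ecm1 was at 43.7, 50.1 and 38.8 FPKM in the Six2-Cre libraries and 17.0, 14.4 and 14.7 in the wild types and rose by 1.46 ± 0.11, and Meis1 rose by 0.32 ± 0.05. In the ureteric smooth muscle list 4 of 10 rose, and Bmp4 was at 31.99, 36.0 and 36.2 FPKM in the Six2-Cre libraries and 10.6, 8.14 and 10.6 in the wild types (1.74 ± 0.11, adjusted p = 5.0e-04). Tpm2, a tropomyosin of muscle, fell by 1.23 ± 0.05. Acta2 and Tagln, contractile genes of the medullary stroma list and not of this one, were highest in Six2-Cre replicate 3. Acta2 was at 16.8, 13.8 and 27.5 FPKM in the Six2-Cre libraries and 5.17, 3.41 and 7.59 in the wild types. Tagln was at 11.1, 7.74 and 16.1 FPKM in the Six2-Cre libraries and 2.14, 2.43 and 3.86 in the wild types. Acta2's rise of 1.67 ± 0.31 was lost without wild-type replicate 7 (0.0557). Acta2 and Tagln were named after their values were seen.

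Blood vessel genes had the highest share of rises among the lists with at least 5 measured genes. Of 22 endothelial genes 20 rose, 0 fell and 2 did not pass, against rises for 8.61% of all genes, and 16 to 20 rose with 1 library left out. Their mean level was 4.15, 4.10 and 4.17 in the Six2-Cre libraries and 3.42, 3.35 and 3.51 in the wild types. Kdr, the main receptor for VEGF, was at 30.4, 27.0 and 27.8 FPKM in the Six2-Cre libraries and 14.6, 13.5 and 15.3 in the wild types (0.92 ± 0.07). Cdh5, the endothelial cadherin, was at 39.0, 35.5 and 38.1 FPKM in the Six2-Cre libraries and 19.7, 16.3 and 20.8 in the wild types (0.95 ± 0.09). Pecam1 (0.76 ± 0.05), Plvap (0.76 ± 0.06) and the transcription factor Erg (0.77 ± 0.11) rose by similar amounts, and none of these genes overlapped between the groups.

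Mural cells, which wrap vessels, showed the same direction. Of 11 genes 9 rose and 1 fell (81.8% and 9.09%, against 8.61% and 6.46% of all genes), with 8 to 9 rising when 1 library was left out. Pdgfrb, the receptor that recruits them, was at 48.6, 48.0 and 48.9 FPKM in the Six2-Cre libraries and 20.01, 18.5 and 18.5 in the wild types (1.31 ± 0.05, adjusted p = 8.1e-05). The channel genes Kcnj8 (1.38 ± 0.17) and Abcc9 (1.56 ± 0.12), neighbours on the same chromosome, and Ndufa4l2 (1.90 ± 0.20) rose, and Ndufa4l2 was at 7.18, 6.05 and 4.91 FPKM in the Six2-Cre libraries and 1.21, 1.05 and 0.440 in the wild types. Desmin (Des), an intermediate filament named after its value was seen, fell by 0.86 ± 0.11.

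Ligands and receptors of vessel growth were split by member. Vegfc was at 21.7, 20.8 and 22.7 FPKM in the Six2-Cre libraries and 9.30, 9.79 and 7.32 in the wild types (1.22 ± 0.11), and Nrp2, its co-receptor, rose by 1.58 ± 0.16. Nrp1 (0.65 ± 0.04) and the apelin receptor Aplnr (1.16 ± 0.07) rose too. Vegfa, the main vessel growth signal of the kidney, was at 47.0, 35.3 and 39.6 FPKM in the Six2-Cre libraries and 42.2, 36.2 and 33.6 in the wild types, and its change of 0.12 ± 0.12 did not pass (95% interval -0.18 to 0.41). Pgf, a VEGF relative, fell by 1.11 ± 0.17. Over the 16 measured genes of the list 7 rose and 2 fell. Vegfa and Pgf were named after their values were seen.

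**Figure D4:**
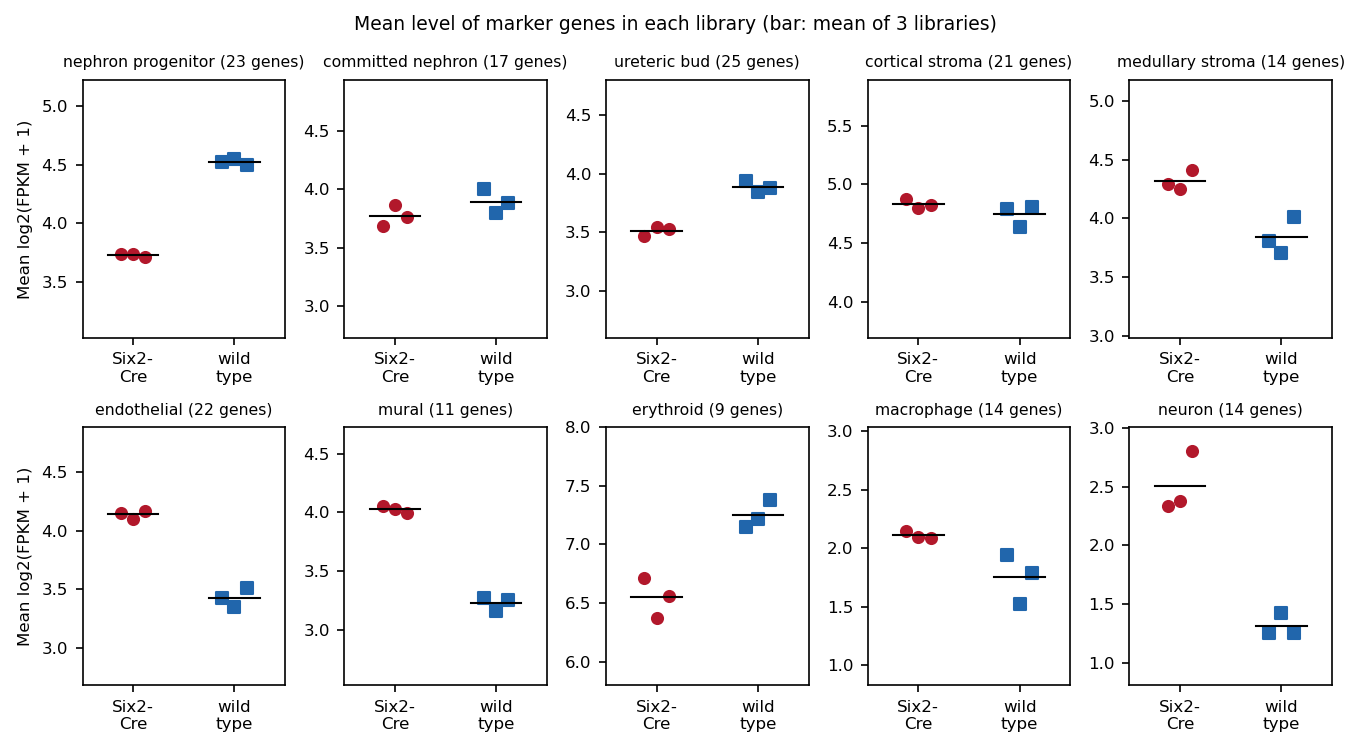
Mean log2(FPKM + 1) over the measured members of 10 cell type lists in each library, with Six2-Cre in red, wild-type replicates 7 to 9 in blue and bars at the mean of 3 libraries. Every panel spans the same range. Progenitor, ureteric bud and erythroid levels are lower in all 3 Six2-Cre libraries and endothelial, mural and neuron levels are higher, while cortical stroma and committed nephron levels overlap.

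Red cell genes fell while vessel genes rose, with falls for 88.9% of the measured red cell list and 6.46% of all genes. Of 9 measured members 8 fell and 1, Epor, rose (0.76 ± 0.15, a call that ended without Six2-Cre replicate 1 (0.0651), Six2-Cre replicate 3 (0.0733), wild-type replicate 7 (0.0579) and wild-type replicate 9 (0.0540)), and 7 to 8 fell with 1 library left out. Hba-a1, adult alpha globin, was at 2289, 1756 and 2074 FPKM in the Six2-Cre libraries and 3607, 3607 and 4459 in the wild types (-0.93 ± 0.13). Hbb-y, an embryonic globin, was at 2053, 1737 and 1919.9 FPKM in the Six2-Cre libraries and 3362, 3504 and 3985 in the wild types (-0.93 ± 0.09). Hbb-bs was at 662, 459 and 523 FPKM in the Six2-Cre libraries and 973, 997 and 1201 in the wild types (-0.96 ± 0.15). These 3 were the largest falls in FPKM among the genes that the naming rule covers, each without overlap, and Hba-a1 and Hbb-bs have near-identical copies between which reads can be split. The list summed to 5619.9, 4435 and 5035 FPKM in the Six2-Cre libraries and 8867, 9073 and 10700.3 FPKM in the wild types. With the erythroid and mitochondrial genes taken out of the library sums, 1291 genes rose and 686 fell. Of 14 macrophage genes 5 rose and 0 fell (35.7% and 0%, against 8.61% and 6.46% of all genes). The rises numbered 2 without Six2-Cre replicate 1 and 3 without Six2-Cre replicate 2 or 3 or without wild-type replicate 8 or 9. The 2 that were called with any 1 library left out were C1qb (0.54 ± 0.08) and Mrc1 (0.59 ± 0.10). Csf1r (0.29 ± 0.15, -0.06 to 0.65), which defines the cell type and was named after its value was seen, did not pass.

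Neuronal genes were higher in the Six2-Cre libraries, and unevenly so. Of 14 measured members 11 rose and 0 fell (78.6% and 0%, against 8.61% and 6.46% of all genes). With 1 library left out 9 to 11 rose, and the median was 1.33. Dbh, an enzyme of noradrenaline synthesis, was at 5.55, 3.65 and 7.65 FPKM in the Six2-Cre libraries and 0.0725, 0.449 and 0.312 in the wild types (2.34 ± 0.24). Th, the first enzyme of that route, was at 3.77, 1.25 and 4.30 FPKM in the Six2-Cre libraries and 0.0969, 0.1003 and 0 in the wild types (1.85 ± 0.32). Six2-Cre replicate 2 was the lowest of its group for both. Tubb3 (1.42 ± 0.13), Gap43 (1.498 ± 0.14) and Nefm (1.53 ± 0.15), of axons, and Isl1 (1.17 ± 0.17) rose, whereas Elavl4 (-0.53 ± 0.43, -1.56 to 0.49) did not pass. The list mean was 2.34, 2.38 and 2.81 in the Six2-Cre libraries and 1.25, 1.42 and 1.25 in the wild types. Sox10, which defines Schwann cells and their precursors, missed the filter at 2.37, 0.514 and 1.67 FPKM in the Six2-Cre libraries and 0.169, 0.177 and 0.610 in the wild types, uneven within the Six2-Cre group. The part of nerve tissue in the neuronal rises was not tested. Among other Schwann list genes Fabp7 was at 7.25, 7.60 and 4.88 FPKM in the Six2-Cre libraries and 1.35, 1.01 and 0.691 in the wild types and rose by 1.90 ± 0.19, while Ngfr (-1.06 ± 0.12) and Mbp (-0.82 ± 0.12) fell. Th, Sox10 and Elavl4 were named after their values were seen.

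Markers of gonad and adrenal cortex were mostly near 0, while those of muscle and cartilage were measurable. Nr5a1, Star, Hsd3b1 and Cyp11a1, which define gonad and adrenal cortex, were under the filter, and 1 gene of that list was measured, Mc2r, at 6.52, 8.02 and 5.75 FPKM in the Six2-Cre libraries and 2.22, 1.81 and 2.38 in the wild types (1.30 ± 0.14). Of 12 gonad and adrenal genes written down, 11 were under the filter. Of 18 skeletal muscle genes 10 were measured, and the list summed to 35.5, 49.6 and 30.1 FPKM in the Six2-Cre libraries and 46.1, 28.3 and 80.2 FPKM in the wild types, which overlap. The single call among them was the myosin-binding gene Mybpc1 (10.9, 18.2 and 11.1 FPKM in the Six2-Cre libraries and 1.94, 1.52 and 2.47 in the wild types), which rose by 2.25 ± 0.22, and Myod1 and Myf5 were under the filter. The cartilage and bone list, with 9 of 15 genes measured, summed to 102, 101 and 103 FPKM in the Six2-Cre libraries and 62.1, 73.2 and 73.4 FPKM in the wild types, without overlap. Of these 9, 5 rose (55.6%, against 8.61% of all genes), among them Col9a1 (1.30 ± 0.14). The rises numbered 2 without Six2-Cre replicate 1 or 3 or without wild-type replicate 7 and 3 without Six2-Cre replicate 2 or without wild-type replicate 9. Acan and Sp7 were under the filter and Col2a1 (0.01 ± 0.06, -0.14 to 0.17), named after its value was seen, did not pass. The part of adjoining tissue in these results was not tested.

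In the BMP and TGF-beta pathway 12 of 25 measured genes rose and 2 fell (48% and 8%, against 8.61% and 6.46% of all genes). The median was 0.32, and 7 rises were called with any 1 library left out. The count of rises was 7 without Six2-Cre replicate 3. Of the ligands, Bmp4 rose as given above and Bmp7, which progenitors make and need, was at 15.98, 14.9 and 13.2 FPKM in the Six2-Cre libraries and 31.2, 25.7 and 24.4 in the wild types and fell by 0.84 ± 0.11. Tgfb1 rose by 0.99 ± 0.09. Of the target genes, Id1 was at 82.5, 79.3 and 87.4 FPKM in the Six2-Cre libraries and 53.2, 56.3 and 52.9 in the wild types (0.61 ± 0.05) and Id2 at 212, 218 and 216 FPKM in the Six2-Cre libraries and 142, 145 and 146 in the wild types (0.57 ± 0.04), with Id3 similar (0.65 ± 0.06). The 3 Id genes did not overlap between the groups. Bmp2 (-0.12 ± 0.16, -0.50 to 0.25) did not pass. Bmp7, Id3 and Bmp2 were named after their values were seen.

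FGF genes were mixed, with 4 of 21 higher and 4 lower (2 without Six2-Cre replicate 2 or 3 or without wild-type replicate 7). Fgf10, a ligand that promotes bud growth, was at 4.51, 4.56 and 4.66 FPKM in the Six2-Cre libraries and 7.47, 8.79 and 8.21 in the wild types and fell by 0.71 ± 0.08, and the receptor Fgfr2 was at 35.5, 26.4 and 26.3 FPKM in the Six2-Cre libraries and 48.4, 48.3 and 50.7 in the wild types and fell by 0.73 ± 0.12. The feedback genes Spry4 (0.67 ± 0.08) and Spry1 and the factor Etv1 (0.75 ± 0.11) rose. Dusp6, another feedback gene, had a change of 0.22 ± 0.08 that did not pass (0.03 to 0.42). Hedgehog genes split too, with 2 of 9 higher and 3 lower (22.2% and 33.3%). The rises numbered 0 without Six2-Cre replicate 3, and 2 of the falls were called with any 1 library left out. Ptch1, receptor and target, was at 38.3, 37.1 and 35.8 FPKM in the Six2-Cre libraries and 50.1, 57.6 and 63.98 in the wild types and fell by 0.61 ± 0.09, and the co-receptor Gas1 fell by 0.75 ± 0.07, while the target Gli1 (-0.14 ± 0.20, -0.61 to 0.33) did not pass. Fgfr2, Dusp6 and Gli1 were named after their values were seen.

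Retinoic acid genes rose for 7 and fell for 2 of 17 (41.2% and 11.8%, against 8.61% and 6.46% of all genes). The count of rises was 3 without Six2-Cre replicate 1, 2 or 3 or without wild-type replicate 7 or 8. Aldh1a1, a synthesis enzyme, was at 1.28, 1.39 and 0.711 FPKM in the Six2-Cre libraries and 6.59, 4.76 and 6.25 in the wild types and fell by 1.70 ± 0.17. Dhrs3, which turns retinal back to retinol, rose by 0.67 ± 0.05 and the receptor Rarg by 0.66 ± 0.08. Aldh1a2, the synthesis enzyme of kidney stroma, was at 206, 192 and 214 FPKM in the Six2-Cre libraries and 208, 215 and 184 in the wild types, and its change of 0.02 ± 0.07 did not pass (-0.16 to 0.19). In the Notch list 3 of 16 rose (18.8%, and 1 without Six2-Cre replicate 3), 0 fell and 13 did not pass. Hey2 rose from 2.63, 3.66 and 3.78 FPKM to 10.2, 11.6 and 11.1 FPKM (1.47 ± 0.13). Of 14 Hippo and Yap genes 1 rose, Ccn1 (0.66 ± 0.07). Cxcl12, a chemokine of stroma, was at 262, 229 and 247 FPKM in the Six2-Cre libraries and 110.4, 126 and 158 in the wild types and rose by 0.91 ± 0.13, and Kit, the receptor of stem cell factor, was at 25.03, 27.5 and 23.7 FPKM in the Six2-Cre libraries and 7.84, 10.3 and 8.61 in the wild types and rose by 1.42 ± 0.10, while the scavenging receptor Ackr3 fell by 0.90 ± 0.06. Aldh1a2 was named after its value was seen.

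Matrix genes rose more often than they fell. Of 32 measured collagens 14 rose and 0 fell (43.8% and 0%, against 8.61% and 6.46% of all genes, median 0.32). The count of rises was 8 without Six2-Cre replicate 3 and 9 without Six2-Cre replicate 1, and 8 collagens were called in each of the 6 such fits. Col1a2 was at 170.4, 157 and 164 FPKM in the Six2-Cre libraries and 104, 90.3 and 115 in the wild types (0.67 ± 0.09), while its partner Col1a1 (0.27 ± 0.08, 0.08 to 0.45) did not pass. Of 14 integrins 8 rose and 1 fell (57.1% and 7.14%), and the rises numbered 5 without Six2-Cre replicate 3. Itgb1 (0.36 ± 0.04), Itgb5 (0.65 ± 0.05) and Itga6 (0.46 ± 0.05) were among the rises. Itga8, the progenitor integrin, was the one that fell. Of 20 proteases and inhibitors 10 rose, 9 to 10 with 1 library left out. Mmp2 was at 76.5, 72.5 and 73.3 FPKM in the Six2-Cre libraries and 44.97, 46.1 and 47.2 in the wild types (0.67 ± 0.04), and Timp3, which inhibits such enzymes, rose by 1.06 ± 0.11. Col1a1 was named after its value was seen.

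Basement membrane genes went both ways. Nid1 (0.70 ± 0.08) and Nid2 (0.68 ± 0.06) rose, and the epithelial laminin gene Lama5 (-0.74 ± 0.11) fell, with 6 rises (3 without Six2-Cre replicate 2 or without wild-type replicate 8) and 4 falls (2 without wild-type replicate 7 or 8) in 20 genes and 3 and 2 of these called with any 1 library left out. Among axon guidance genes 10 of 33 rose and 6 fell (30.3% and 18.2%, against 8.61% and 6.46% of all genes). The rises numbered 6 without Six2-Cre replicate 1 or 3 or without wild-type replicate 7. Sema3d, a secreted guidance cue, was at 6.66, 7.34 and 7.28 FPKM in the Six2-Cre libraries and 19.4, 20.6 and 19.5 in the wild types and fell by 1.36 ± 0.07, and the Slit receptor Robo2 was at 50.3, 49.05 and 58.3 FPKM in the Six2-Cre libraries and 99.0, 108 and 97.7 in the wild types and fell by 0.94 ± 0.08. Epha3, named after its value was seen, rose by 1.56 ± 0.25.

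The largest rises in FPKM included imprinted genes of fetal growth. H19, a noncoding RNA beside Igf2, was at 2639, 2593 and 2600.3 FPKM in the Six2-Cre libraries and 1848, 1853 and 1962 in the wild types (0.47 ± 0.05). Igf2, a fetal growth factor, was at 1213, 1137 and 1096 FPKM in the Six2-Cre libraries and 814, 769 and 819 in the wild types (0.52 ± 0.06). Tmsb4x, which binds actin, was at 1282, 1303 and 1298 FPKM in the Six2-Cre libraries and 816, 857 and 976 in the wild types (0.56 ± 0.07). Gnas (0.33 ± 0.04) and Igfbp4 (0.91 ± 0.05), which binds IGFs, completed the 5 largest, and none overlapped between the groups. Of 25 measured imprinted genes 9 rose and 2 fell (36% and 8%, against 8.61% and 6.46% of all genes), with 8 to 11 rising when 1 library was left out. Peg10 was at 152, 142 and 148 FPKM in the Six2-Cre libraries and 52.9, 61.8 and 52.0 in the wild types (1.39 ± 0.07, adjusted p = 2.7e-04) and Asb4 at 88.5, 69.4 and 63.7 FPKM in the Six2-Cre libraries and 21.3, 25.8 and 28.9 in the wild types (1.51 ± 0.15). Besides the globins, the largest falls in FPKM were those of the RNA-binding genes Pcbp4 (-0.80 ± 0.15), lost without Six2-Cre replicate 1 (0.0592), Six2-Cre replicate 2 (0.0570), wild-type replicate 7 (0.0568) and wild-type replicate 8 (0.0567), and Hnrnpa2b1 (-0.31 ± 0.08), lost without Six2-Cre replicate 1 (0.128), Six2-Cre replicate 2 (0.101), Six2-Cre replicate 3 (0.123), wild-type replicate 8 (0.0676) and wild-type replicate 9 (0.0576).

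Mitosis genes were not called, while some replication genes fell. Of 22 measured mitosis genes 0 were called by limma, with a median of 0.02. Mki67, named after its value was seen, was at 105, 111 and 108 FPKM in the Six2-Cre libraries and 104, 102 and 102 in the wild types (0.07 ± 0.04, -0.02 to 0.17). Of 22 replication genes 7 fell (31.8%, against 6.46% of all genes) and 0 rose, with a median of -0.15. The count of falls was 2 without Six2-Cre replicate 2 or 3 or without wild-type replicate 7 or 8 and 3 without Six2-Cre replicate 1. Mcm7 was at 95.2, 87.7 and 94.8 FPKM in the Six2-Cre libraries and 123, 124 and 110.4 in the wild types (-0.36 ± 0.06) and Mcm6 fell by 0.34 ± 0.05. Cdkn1a, which stops the cell cycle, rose by 1.32 ± 0.12. It was at 12.4, 15.1 and 15.3 FPKM in the Six2-Cre libraries and 5.85, 4.43 and 5.12 in the wild types. Of 15 measured p53 targets 2 rose and 1 fell (13.3% and 6.67%, against 8.61% and 6.46% of all genes).

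Hox genes, which set position along the body, gave 5 rises and 6 falls in 34 measured. These shares were 14.7% and 17.6%, against 8.61% and 6.46% of all genes, and 0 rises and 2 falls were called with any 1 library left out. The rises numbered 1 without Six2-Cre replicate 1 or 3 or without wild-type replicate 7 and 2 without Six2-Cre replicate 2 or without wild-type replicate 8 or 9, and the falls 2 without Six2-Cre replicate 3 or without wild-type replicate 8 and 3 without Six2-Cre replicate 1. The 2 falls that were called in each fit were Hoxb8 (-0.73 ± 0.12) and Hoxb2 (-0.39 ± 0.07). Forkhead factors gave 0 rises and 3 falls (1 without Six2-Cre replicate 3 or without wild-type replicate 7 or 8) in 19, a share of falls of 15.8%. The largest fall was that of Foxd2 (8.13, 5.70 and 7.99 FPKM in the Six2-Cre libraries and 19.4, 19.3 and 18.5 in the wild types, -1.29 ± 0.13). Lmx1b, a factor of podocytes and stroma, fell by 1.05 ± 0.15. Ets factors rose for 6 and fell for 1 of 21 (28.6% and 4.76%), with the vascular members Erg, Fli1 (0.71 ± 0.07) and Ets1 (0.46 ± 0.05) among the rises.

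Ribosomal, proteasome, respiratory and mitochondrial genome families had shares of calls near those of all genes or below them. Of 83 cytosolic ribosomal protein genes 2 fell and 0 rose (median -0.12). Their log2 changes were small but all negative, from -0.21 to -0.01. The list summed to 108602, 106984 and 105233 FPKM in the Six2-Cre libraries and 122578, 114643 and 112426 FPKM in the wild types, without overlap. Of 76 mitochondrial ribosomal protein genes 7 fell (2 without Six2-Cre replicate 3 and 3 without wild-type replicate 7) and 0 rose (median -0.11). Proteasome genes fell for 1 of 47, and 0 of 9 genes of the mitochondrial genome were called by limma. Of 89 nuclear respiratory genes 4 fell and 2 rose (median -0.09). The rises were Ndufa4l2 and Cox4i2 (1.22 ± 0.19), both isoforms with restricted expression. The falls were Ndufaf8 (-0.37 ± 0.05), Ndufv1 (-0.27 ± 0.04), Cox5a (-0.18 ± 0.04) and Uqcrb (-0.16 ± 0.03), and the calls of Cox5a and Uqcrb ended without any 1 of the 6 libraries (adjusted p up to 0.144 and 0.107). Both were picked once their values were known. The glycolysis and hypoxia list rose for 3 of 21 genes (14.3%, against 8.61% of all genes), and for 1 without Six2-Cre replicate 1 or 3 or without wild-type replicate 8. Cholesterol synthesis rose for 3 of 22 (13.6%) and fell for 1, and its rises numbered 1 without Six2-Cre replicate 1 or 2 or without wild-type replicate 7, 8 or 9. Immediate early genes rose for 4 of 14 (28.6%) and fell for 1. Those rises numbered 2 without Six2-Cre replicate 2 or 3 or without wild-type replicate 7, 8 or 9. Among the rises of the 3 lists were Bnip3 (0.53 ± 0.08), Hmgcs1 (0.53 ± 0.07) and Egr1 (0.84 ± 0.11). In the amino acid list Pycr1, an enzyme of proline synthesis that lies 10018 bases from Notum, was at 22.0, 34.0 and 31.5 FPKM in the Six2-Cre libraries and 7.68, 7.43 and 6.36 in the wild types (1.87 ± 0.16), while Phgdh, of serine synthesis, fell by 0.69 ± 0.08. Of 10 interferon and MHC genes 1 rose, B2m (0.34 ± 0.05).

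**Figure D5:**
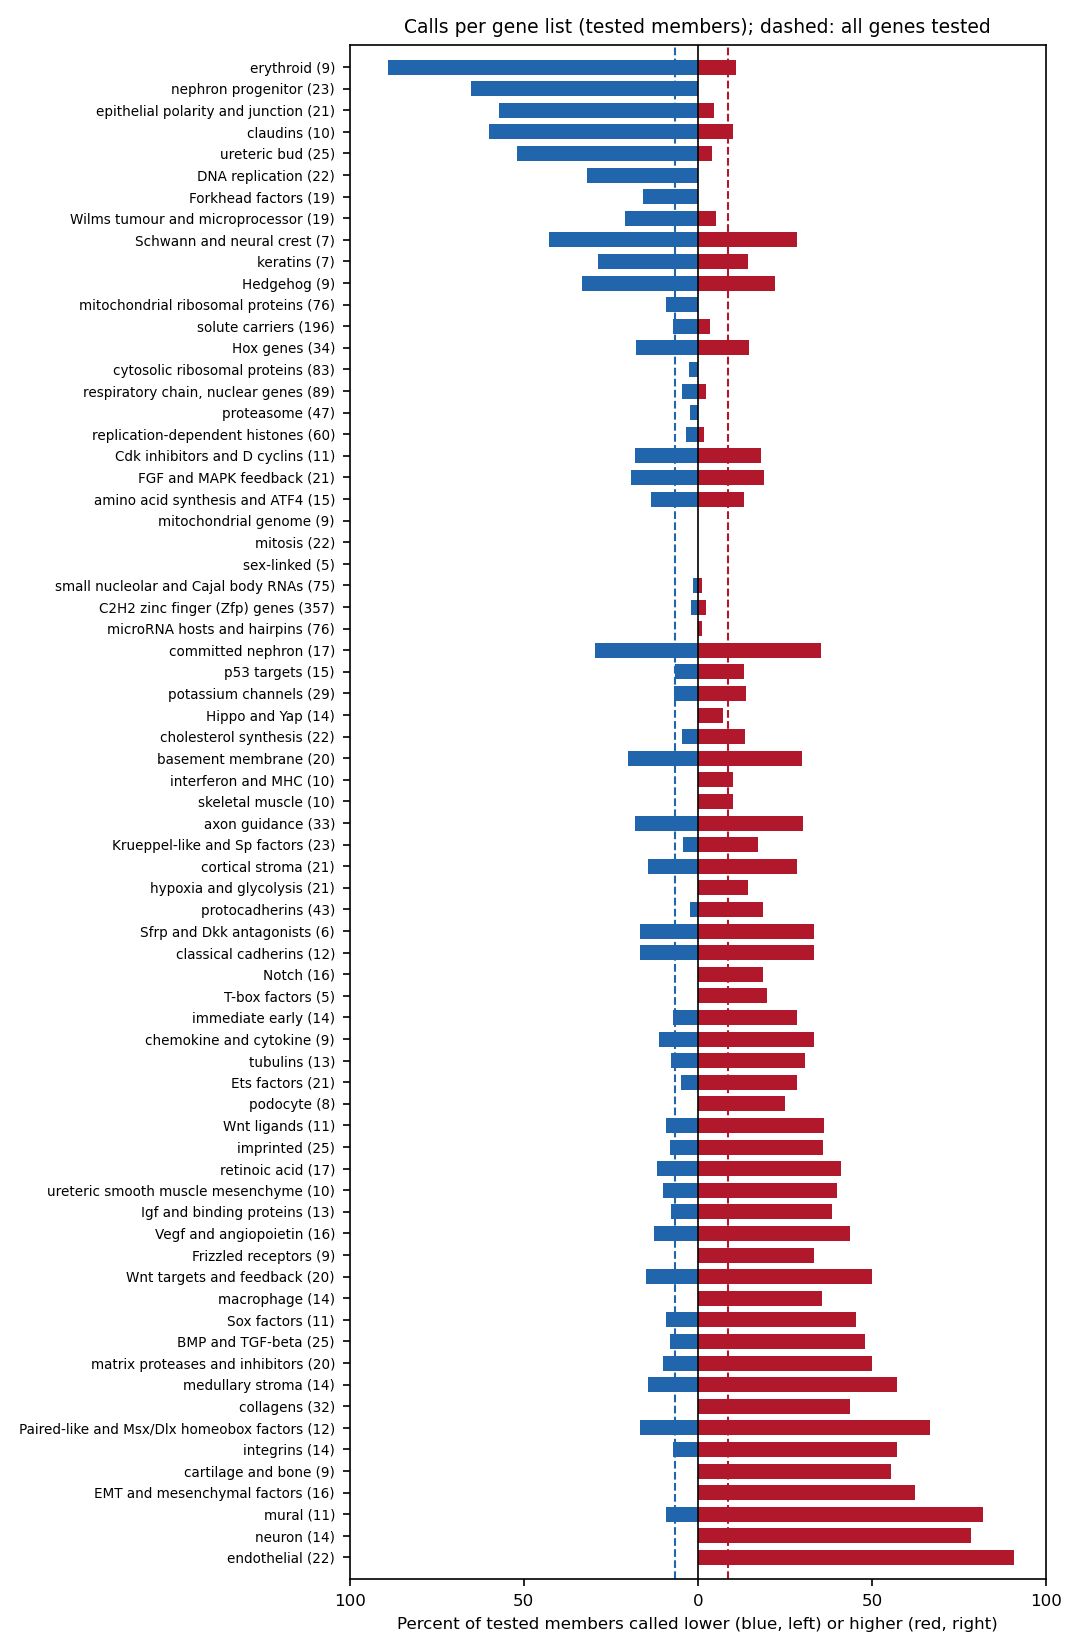
Percent of measured members called higher (red, right) or lower (blue, left) in the 70 lists with at least 5 measured members, ordered by the share higher minus the share lower, with the number measured in brackets and dashed lines at 8.61% and 6.46%, the shares over all genes tested. Endothelial and mural bars reach furthest right, the erythroid bar furthest left with the progenitor bar next, and the mitosis list has no bar.

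The TCF/LEF core letters were counted over the promoters on hand, which covered 9990 of the 13085 genes tested. They covered 129 of the 187 rises and 55 of the 87 falls of at least 1 on the log2 scale. The other genes were not searched. Of 12814 promoters 743 held CTTTGAT or CTTTGAA on either strand (5.80%). The share was 10.2% for genes that rose by at least 1 on the log2 scale (17 of 166 promoters) and 11.4% for those that fell by as much (8 of 70). It was therefore above that of all tested genes in both directions, and it stood at 8.65% over all 32851 promoters of the reference table, whether or not their genes were measured. Of the 12 largest rises 8 genes had promoters on hand, 9 in all, and 2 of these promoters held the letters. Of the 12 largest falls 8 genes had promoters on hand, 11 in all, and 0 held them. A match marks letters, not a bound site, and no match says only that these letters are not in that window.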

How the data were processed

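RNA of whole embryonic kidneys was sequenced as Illumina libraries, per the labels' protocols. The submitters' processing notes name bcl2fastq 2.17.1.14, Salmon and the builds GRCm38 and mm10, and how the FPKM were made from these is not given in the sources used here. The authors deposited FPKM for 17 libraries in 1 table. In that table the 6 libraries used had equal median ratios among themselves. Over all 17 libraries the ratios were 0.955 to 0.974 for these 6 and 1.02 to 1.03 for the other 11. The 6 were therefore taken as scaled apart from the other 11, and ratios within the other 11 were not computed. No strand setting is stated, so genes that overlap another gene, among them Notum (Notumos), Six3 (Six3os1), Mab21l1 (Nbea) and Sp9 (Cir1), are uncertain.

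The filter kept genes that reached 1 FPKM in 3 or more of the 6 libraries, which were tested on log2(FPKM + 1) with limma 3.58.1 (variance trend, two-sided, Benjamini-Hochberg over all tested genes) in R 4.3.3. The script was tested on simulated data. Of all IDs, 24222 had a symbol. Python 3.11.15, numpy 2.4.6, pandas 2.3.3 and matplotlib 3.10.9 made the counts and figures. The 78 lists (17 cell types, 26 pathways, 35 by symbol) and the members were chosen with earlier results of these data known. Lists were described by counts and medians, with no set test, and some members are not reported here.

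Genes were named by rule, 251 in all, as follows. They were the genes of the alleles and drivers with Axin2 and Notum, the 12 largest called log2 changes each way with at least 2 FPKM in the higher group, the 5 largest FPKM differences each way, genes listed at 0 in 1 group, and up to 4 called members of each list by p-value. Predicted genes and small RNAs were left out of the largest changes. Alternatives covered pseudocount, filter, scaling, trend, robust fit, control set, each library left out and, added after the data were seen, a Y-linked covariate.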

Additional observations from a re-analysis of the deposited data

How the results depend on the processing

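No paired analysis was possible because the groups compared share no replicate numbers. With 1 library left out, 623 to 961 genes rose and 382 to 639 fell, and changes of at least 1 on the log2 scale numbered 158 to 215 rises and 80 to 92 falls. Against all 9 wild types, which mixes sets scaled separately, 2174 genes fell, and 292 rises and 197 falls were of at least 1. A mean of at least 5 FPKM left 89 such rises and 46 such falls among fewer genes tested (10217), and a pseudocount of 5, which shrinks log2 changes by construction, left 48 and 30. Counts under pseudocount 0.1, no filter, rescaling to the same sum (1340 rises, 673 falls), no variance trend, robust moderation and the Y-linked covariate, which was chosen after seeing the data, stayed within 1.5 times. Rescaling by the median ratio changed nothing, since the 6 libraries already shared it.

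Of the 251 named genes, 8 turned direction, all against all 9 wild types, with log2 changes of -0.0447 for Ctnnb1, -0.00321 for Dusp1, 0.0467 for Adamts12, 0.47 for Gata3, -0.0312 for Col26a1, 0.0361 for Itga8, 0.21 for Hist3h2ba and 2.35 for Hist3h2a, and a further 38 lost their call. The cause was not tested. Named genes that lost their call numbered 20 to 44 with 1 library left out, 17 with no filter, 16 without the trend, 9 with the same sum and 8 with the Y-linked covariate. Depth limits low genes, since 1 read on 1 kilobase was worth 0.172 to 0.190 FPKM.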

Other observations

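Some large changes lay side by side in the genome. Of 13020 neighbouring pairs of tested genes, 20 had both members changed by at least 1 on the log2 scale in the same direction, 15 of them upward. Capn6 and Dcx on chromosome X, 28427 bases apart, fell together. So did Phf19 (-2.11) with its neighbours Traf1 (-1.90) and Cutal (-1.22) on chromosome 2. The class II histocompatibility genes H2-Ab1 (-1.48 ± 0.24) and H2-Eb1 (-1.48 ± 0.13) on chromosome 17 fell. Neither was among the 10 measured genes of the interferon and MHC list. Upward pairs included Pycr1 with Notum, Kcnj8 with Abcc9, En2 with Cnpy1 (1.24) and Lsamp (1.85 ± 0.13) with Gap43. The call of Cnpy1 ended without Six2-Cre replicate 1 (0.105), Six2-Cre replicate 2 (0.0901), Six2-Cre replicate 3 (0.0796), wild-type replicate 7 (0.0944) and wild-type replicate 9 (0.0845). The pairs were listed after the changes were known, and no test of their number was made.

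Several strongly changed genes belonged to no list and were named after their values were seen. Vcam1, an adhesion protein, was at 32.04, 33.03 and 35.0 FPKM in the Six2-Cre libraries and 10.3, 9.91 and 12.1 in the wild types (1.55 ± 0.08). Socs2, a brake on growth hormone signalling, was at 11.98, 13.2 and 11.9 FPKM in the Six2-Cre libraries and 3.39, 1.96 and 2.86 in the wild types (1.85 ± 0.15). Mt1, a metallothionein, was at 22.9, 21.0 and 18.9 FPKM in the Six2-Cre libraries and 5.37, 7.13 and 4.27 in the wild types (1.75 ± 0.16), and it rose along with Mt3. Has2, which makes hyaluronan, was at 12.2, 11.6 and 11.05 FPKM in the Six2-Cre libraries and 31.6, 36.7 and 32.2 in the wild types (-1.45 ± 0.08). Moxd1, related to Dbh, was at 3.66, 5.23 and 5.29 FPKM in the Six2-Cre libraries and 21.4, 22.5 and 18.9 in the wild types (-1.95 ± 0.14), lower in all 3 Six2-Cre libraries.

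Broad families differed in their shares of calls, against 8.61% higher and 6.46% lower over all genes. The shares higher and lower were 45.5% and 9.09% for Sox factors, 30.8% and 7.69% for tubulins and 18.6% and 2.33% for protocadherins. They were 13.8% and 6.90% for potassium channels, 3.57% and 7.14% for solute carriers and 2.24% and 1.96% for Zfp genes. Protocadherins, adhesion proteins of many neurons, rose for 8 of 43 and fell for 1 (rises, 4 without Six2-Cre replicate 3 and 5 without Six2-Cre replicate 1 or 2 or without wild-type replicate 8), and potassium channels for 4 and 2 of 29. Sox factors rose for 5 of 11 (3 without Six2-Cre replicate 1 or 3 or without wild-type replicate 8). The largest change was that of Sox5, given above, and the vascular Sox18 (0.56 ± 0.09) rose too. Tubulins rose for 4 of 13. Tubb3, given above with the neuronal genes, had the largest change, and Tubb2a (0.56 ± 0.07) and Tuba1a (0.34 ± 0.04) rose too. Solute carriers rose for 7 and fell for 14 of 196 (falls, 5 without Six2-Cre replicate 3 or without wild-type replicate 8 and 6 without wild-type replicate 7 and 8 without Six2-Cre replicate 2 and 9 without wild-type replicate 9 and rises, 4 without Six2-Cre replicate 1 or 3 or without wild-type replicate 8), and zinc finger genes of the Zfp series for 8 and 7 of 357, both fewer with most single libraries left out (down to 5 rises and 3 falls, the latter without Six2-Cre replicate 2 or 3). Small RNA genes, which lie in or near other genes, gave 1 rise among 76 microRNA genes and 1 rise and 1 fall among 75 small nucleolar genes. FPKM of such short genes can reach high values from few reads.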
